A study of Homo sapiens with 9 samples.

Results

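The genes described here code for the 4 protein families that bind pre-mRNA or the spliceosome and set splice site choice in most human cells: the heterogeneous nuclear ribonucleoproteins (HNRNP symbols), the serine and arginine-rich splicing factors (SRSF followed by a number), the subunits of splicing factors 3a and 3b (SF3A and SF3B followed by a number) and the U2 auxiliary factors (U2AF1, U2AF2 and their relatives). Members were taken by symbol alone, without pseudogenes and without symbols that hold a hyphen, which left out 1 row, a divergent transcript named after HNRNPD. The rule found 48 of the 22587 genes in the table, of which 24 were HNRNP genes, 12 SRSF genes, 9 SF3A or SF3B genes and 3 U2AF genes. A mean of at least 0.5 FPKM (fragments scaled to the length of the gene and to the depth of the library) over all libraries was needed for a test, and 44 of the 48 members had it, namely 21, 11, 9 and 3 by family.

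The libraries were made from Hep G2 cells, a human liver tumor cell line grown in high glucose DMEM with serum, which the study used to ask how cells respond when glutamine (Gln) is missing. The 3 groups, of 3 libraries each, were cells with Gln added, cells kept without Gln for 12 h and cells kept without Gln for 24 h. No genotype or drug differed between the groups. The sample labels give GlutaMAX, a dipeptide source of Gln, to the Gln-added cells, whereas the description of the treatment gives it to the Gln-free medium, and the groups here follow the sample labels. All libraries are of 1 cell line, and no separate time-matched control was labelled for 12 h or for 24 h, so both comparisons share the same 3 Gln-added libraries and time in culture cannot be told apart from time without Gln. Nothing in the labels says that replicates came from separate cultures, so the p-values measure the spread between these libraries, which may be technical.

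Splicing removes introns from pre-mRNA in a spliceosome that assembles anew on each intron. U2AF binds the end of the intron, which brings in the U2 particle, and the SF3A and SF3B subunits of that particle hold it on the branch point. SR proteins mostly bind exons and favor their inclusion, while many hnRNP proteins bind silencer elements and oppose it, so the ratio between the families can set the outcome at a regulated exon. Many genes of both families control their own mRNA by including a poison exon that sends the transcript to nonsense-mediated decay. A gene-level FPKM adds the productive and the poison transcripts of a gene together, and no transcript-level values were used here.

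The promoters of 4 members are shown because at 12 h these genes had the largest fall and the largest rise among the SR genes with a listed promoter (SRSF3 and SRSF4) and among the hnRNP genes (HNRNPA3 and HNRNPF). Each sequence is the 250 bases before the first listed start site in RefSeq, build GRCh38.p14, read 5′ to 3′ on the strand of the gene, at chr6:36594112-36594361 (plus strand) for SRSF3, chr1:29181901-29182150 (minus) for SRSF4, chr2:177212544-177212793 (plus) for HNRNPA3 and chr10:43408858-43409107 (minus) for HNRNPF. Capitals mark matches, on either strand, to the E-box CACGTG, the CCAAT box, the GC box with the letters GGGCGG, the cAMP response element TGACGTCA, the amino acid response sequence TGATGCAA, the ETS site with the letters CCGGAAGT, the TATA box with the letters TATAAA, or a G-quadruplex pattern of 4 runs of at least 3 G with 1 to 7 bases between runs.
SRSF3: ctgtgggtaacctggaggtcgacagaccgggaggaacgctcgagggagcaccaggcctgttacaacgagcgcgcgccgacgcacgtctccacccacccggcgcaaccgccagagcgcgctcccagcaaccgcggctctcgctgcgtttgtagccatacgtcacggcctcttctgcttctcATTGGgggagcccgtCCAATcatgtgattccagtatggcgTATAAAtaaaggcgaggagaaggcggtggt
SRSF4: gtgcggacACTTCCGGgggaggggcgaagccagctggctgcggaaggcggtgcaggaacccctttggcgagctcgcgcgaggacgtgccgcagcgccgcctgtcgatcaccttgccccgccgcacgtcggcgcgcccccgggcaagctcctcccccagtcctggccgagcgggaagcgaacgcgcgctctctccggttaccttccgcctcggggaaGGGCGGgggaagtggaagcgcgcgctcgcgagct
HNRNPA3: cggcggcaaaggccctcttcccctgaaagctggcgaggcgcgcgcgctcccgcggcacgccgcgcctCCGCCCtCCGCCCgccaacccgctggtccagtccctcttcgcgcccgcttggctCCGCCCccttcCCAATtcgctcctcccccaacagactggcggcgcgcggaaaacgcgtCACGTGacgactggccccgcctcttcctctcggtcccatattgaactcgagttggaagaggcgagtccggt
HNRNPF: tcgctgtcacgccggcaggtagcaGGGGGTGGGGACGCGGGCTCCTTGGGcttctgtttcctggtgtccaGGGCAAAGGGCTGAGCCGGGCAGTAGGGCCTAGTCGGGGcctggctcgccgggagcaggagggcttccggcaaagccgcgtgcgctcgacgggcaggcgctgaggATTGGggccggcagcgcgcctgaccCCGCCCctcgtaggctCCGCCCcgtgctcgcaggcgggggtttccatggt

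Counting back from -1 at the base before the start, the SRSF3 promoter held CCAAT matches at -70 to -66 and -55 to -51 and a TATAAA at -30 to -25. The SRSF4 promoter held neither of them, and had a GGGCGG at -34 to -29 and a CCGGAAGT at -242 to -235. HNRNPA3 had an E-box at -71 to -66, a CCAAT at -118 to -114 and 3 GC boxes. HNRNPF had a CCAAT at -75 to -71, GC boxes at -50 to -45 and -34 to -29, and overlapping G-quadruplex patterns from -226 to -201 and from -180 to -142. All positions count from the RefSeq start. In the GENCODE annotation the HNRNPF gene reaches chr10:43409186, so its whole printed promoter lies inside that gene. HNRNPA3 starts there at chr2:177212694 and SRSF3 at chr6:36594353, each inside the printed promoter. The set of RefSeq promoters used here held an entry for 43 members, 11 of them with more than 1 start. It held none for HNRNPA1, HNRNPA1L3, HNRNPCL3, SF3B3 and SRSF2. Over these 43, the share with a match was 23.3% for CCGGAAGT, against 3.64% of all 27305 promoters. It was 65.1% against 42.3% for GGGCGG, 16.3% against 6.49% for CACGTG, 39.5% against 33.0% for CCAAT, 11.6% against 11.1% for TATAAA and 20.9% against 22.6% for the G-quadruplex pattern. The cAMP response and amino acid response letters had no match in any of the 43, against 1.77% and 0.82% of all promoters. The 27305 promoters were not limited to genes tested for expression, so these shares have no background matched for expression. A match is a description of these letters only, and the deposited data hold no binding measurements.

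Between 29618771 and 36258403 fragments per library fell on genes in the table, which the FPKM values allowed to be worked back to whole fragments. TRIB3, a stress pseudokinase gene that the study followed, was at 62.9 to 65.9 FPKM in the Gln-added libraries and at 242.3 to 272.4 FPKM in the 6 deprived ones, so the deprived libraries did not overlap the Gln-added ones. Summed FPKM of 8 hepatocyte tumor markers was 7380 to 7480 with Gln, 6470 to 6540 at 12 h and 6260 to 6580 at 24 h. Of the markers of other cell types, 1 of 4 blood genes was in the table, with 1.3 to 2.64 FPKM, and the 3 endothelial genes summed to at most 0.366 FPKM. The 3 of 4 fibroblast genes in the table summed to 0.113 to 0.181 FPKM with Gln, 0.317 to 0.513 at 12 h and 0.603 to 0.775 at 24 h. Nearly all of that sum was PDGFRB, and COL1A1 and COL1A2 were each at most 0.0171 FPKM in any library. Every replicate pair differed by more than counting noise, so all 9 libraries were kept as separate samples.

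Without Gln, the families moved unevenly: SRSF2, SRSF3, SRSF9 and HNRNPA3 fell at both times, SRSF4 and HNRNPF rose at both times, and a group of abundant hnRNP genes was lower at 24 h than at 12 h. At 12 h, 10 members rose, 15 fell and 19 did not pass the test (adjusted p under 0.05 from limma, Benjamini-Hochberg over all 11880 genes tested). The 25 called members are 56.8% of the 44 tested, beside a background of 60.2% of all genes tested (29.1% higher, 31.0% lower). At 24 h, 9 rose, 20 fell and 15 did not pass, which is 65.9% of the members beside 64.7% of all genes (33.0% higher, 31.7% lower). The share of members called was thus near the background at both times, and the direction at 24 h was lower for 45.5% of members. In a bulk library, less RNA of a gene per cell and fewer cells that express it cannot be told apart.

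The sizes were small. The median difference over the 44 members was -0.08 on the log2(FPKM + 0.1) scale at 12 h and -0.11 at 24 h, beside -0.02 and 0.01 over all genes tested, and the median absolute difference was 0.14 and 0.23, beside 0.26 and 0.28. The lowest and highest differences were -0.65 and 0.39 at 12 h, and -0.74 and 0.38 at 24 h. Groups did not overlap for 28 of 44 members at 12 h and 29 at 24 h, beside 67.2% and 69.9% of all genes tested. Among the alternatives tried, 2 moved a count of calls over the whole set of members by more than 1.5 times, both for the lower members at 12 h. With FPKM rescaled to the same total in every library the split was 11 higher and 9 lower, and the calls of HNRNPAB, HNRNPC, HNRNPDL, HNRNPUL2, SF3B3 and SF3B5 were lost. At 24 h the same scaling gave 11 higher and 18 lower, without the calls of SF3B3 and U2AF2 and with HNRNPA1 and HNRNPR among the higher. Without Gln-added replicate 3 the count of lower members was 9.

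**Figure D1:**
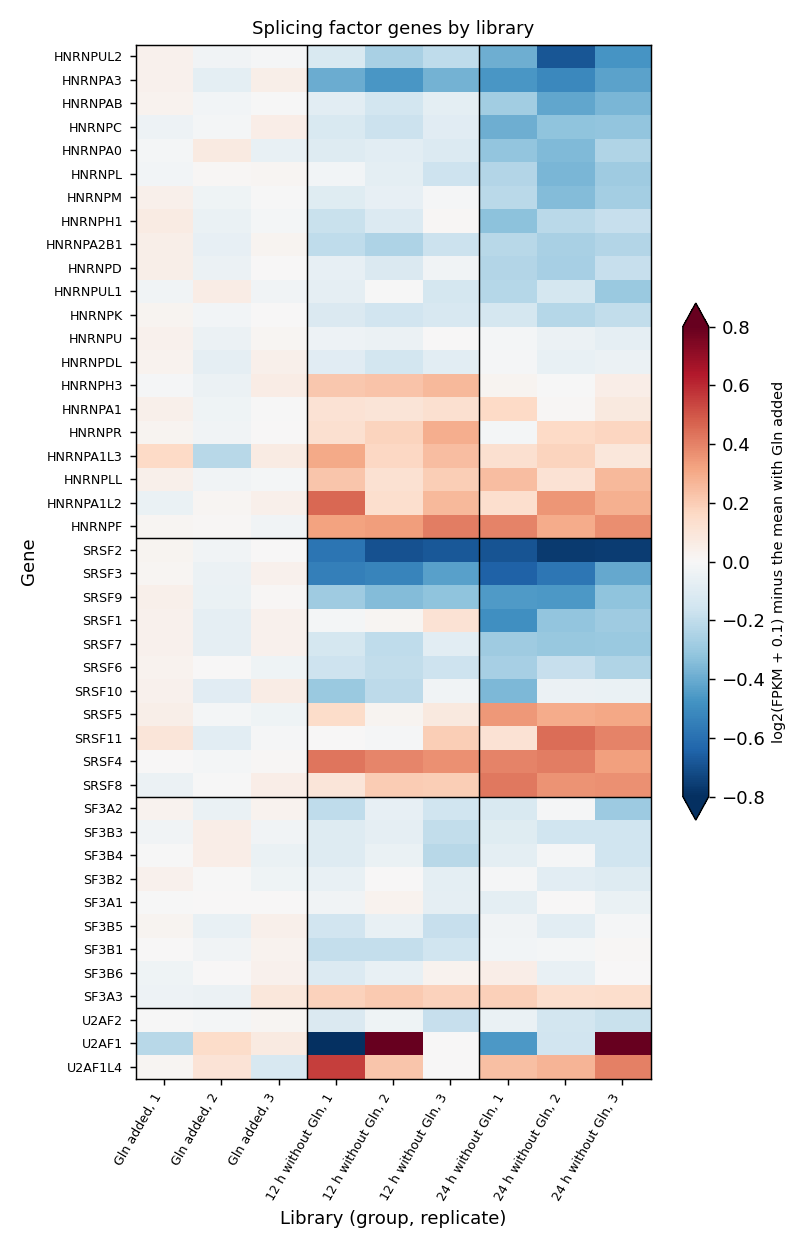
Log2(FPKM + 0.1) of the 44 tested members in each of the 9 libraries minus the gene's mean over the 3 Gln-added libraries, with families separated by horizontal lines and groups by vertical lines (blue, lower; red, higher; U2AF1 runs past the color scale). SRSF2, SRSF3 and HNRNPA3 are blue in all 6 deprived libraries, SRSF4 and HNRNPF are red in all 6, and U2AF1 changes sign from library to library.

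Summed over the 48 members, the level was 3430.9 ± 67.6 FPKM (SD, n = 3) with Gln, 3262.1 ± 33.6 at 12 h and 3131.4 ± 42.9 at 24 h, and the groups did not overlap (exact permutation test, two-sided p = 0.1, the smallest that 3 against 3 can give). This was 1.13 to 1.28% of all fragments on genes, over the 9 libraries. As a share of each library's summed FPKM, it was 0.905, 0.865 and 0.897% with Gln and 0.853, 0.859 and 0.884% at 12 h. That share was 0.844, 0.830 and 0.842% at 24 h. On this scale the Gln-added and 12 h groups overlapped, and the 24 h group lay under both. The SRSF genes summed to 708.5, 674.3 and 698.2 FPKM in the Gln-added libraries, 613.5, 597.6 and 622.2 at 12 h and 574.2, 591.1 and 602.0 at 24 h, so all 6 deprived libraries lay under all 3 with Gln. The sum fell by 11.9% at 12 h and fell by 15.1% at 24 h. The HNRNP genes summed to 2128, 2043 and 2105.5 FPKM with Gln, 2030.3, 2002.3 and 2072.2 at 12 h and 1944.9, 1866.4 and 1920.3 at 24 h, so the groups overlapped at 12 h and not at 24 h. The SF3A and SF3B sum was 579.3 ± 7.9 FPKM with Gln, 553.4 ± 12.6 at 12 h and 569.9 ± 8.2 at 24 h.

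**Figure D2:**
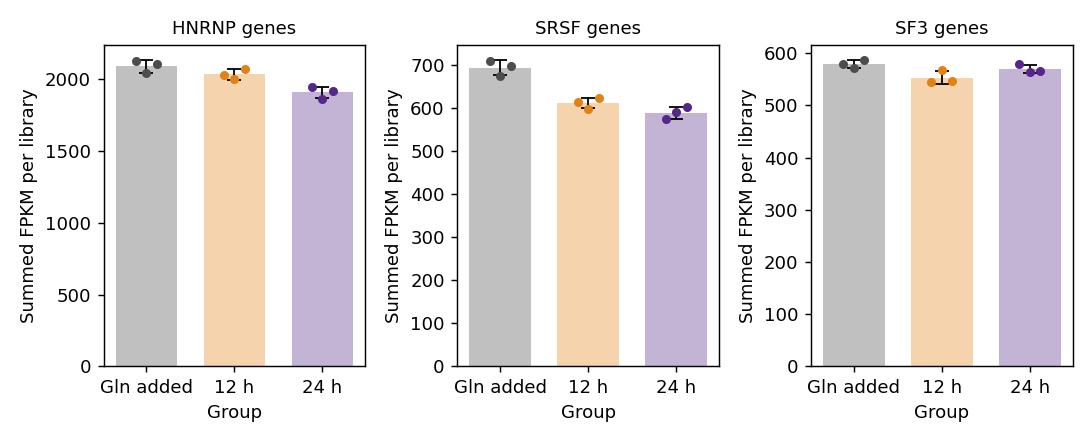
Summed FPKM of the HNRNP, SRSF and SF3 (SF3A and SF3B) genes in each library (points), with the group mean as a bar from 0 and the SD over 3 libraries as an error bar. The SRSF sum drops from 693.7 to 611.1 at 12 h, the HNRNP sum has its larger step between 12 h and 24 h (2034.9 to 1910.5), and the SF3 sum stays between 545.4 and 587.1 in all libraries.

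Among the SR genes, 5 of the 11 tested fell and 2 rose at 12 h, and 6 fell and 4 rose at 24 h. That is 63.6% called at 12 h, near the 60.2% of all genes tested, and 90.9% at 24 h beside 64.7%. SRSF2, the gene of a nuclear speckle protein that also aids release of paused RNA polymerase, had the largest fall of all members. It was at 123, 120 and 122 FPKM with Gln, at 81.3, 75.1 and 76.1 at 12 h and at 75.3, 71.6 and 71.9 at 24 h. All 6 deprived libraries lay far under the Gln-added ones, and the 2 deprived groups overlapped only at 75.3 FPKM. The log2 difference was -0.65 ± 0.04 (SE; limma, adjusted p = 2.14e-07) at 12 h and -0.74 ± 0.04 (adjusted p = 5.28e-08) at 24 h, and the mean level fell by 36.3% and fell by 40.1%. Of the exonic bases of SRSF2 in GENCODE, 27.7% lie opposite another gene's exons. The study's methods describe libraries that keep strand, while the labels name another kit and no source gives the strand setting of the counting, so whether reads of the opposite gene were counted here was not tested.

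SRSF3, the smallest SR protein, acts in splicing and mRNA export, and its promoter is the first one shown above. Its level was 84.6, 81.1 and 85.8 FPKM with Gln, 57.2, 58.2 and 62.0 at 12 h and 53.5, 56.0 and 63.1 at 24 h. It was already low at 12 h and the deprived groups overlapped, with a log2 difference of -0.50 ± 0.06 (limma, adjusted p = 3.1e-05) at 12 h and -0.55 ± 0.06 (adjusted p = 1.3e-05) at 24 h. SRSF9, a small SR protein gene close in sequence to SRSF1, went from 114, 106 and 111 FPKM to 90.6, 86.9 and 88.4 at 12 h and 80.5, 80.2 and 88.4 at 24 h. Its difference was -0.32 ± 0.04 (limma, adjusted p = 0.000123) at 12 h and -0.41 ± 0.04 (adjusted p = 1.37e-05) at 24 h. Of its 3957 exonic bases in GENCODE, 43.6% lie opposite another gene, whereas its FPKM rest on 1152 bases, so the share may differ there. SRSF6 and SRSF7, which both have poison exons, fell less, with log2 differences of -0.17 and -0.14 at 12 h and -0.23 and -0.29 at 24 h. The 12 h call of SRSF7 was lost without Gln-added replicate 1 or 3 or 12 h replicate 2, with adjusted p of 0.0506 to 0.0522 in limma.

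SRSF4, the largest of the classical SR proteins, rose. It was at 47.7, 47.1 and 47.8 FPKM with Gln, at 63.9, 62.3 and 61.2 at 12 h and at 62.6, 63.0 and 59.7 at 24 h. The deprived groups overlapped each other and lay well above the Gln-added libraries, at 0.39 ± 0.03 (limma, adjusted p = 3.42e-06) and 0.38 ± 0.03 (adjusted p = 3.33e-06) on the log2 scale. The 24 h against 12 h difference was -0.02 with an interval (2 SE to each side) of -0.08 to 0.05. SRSF8, an intronless relative of SRSF2, was at 10.1, 10.4 and 10.8 FPKM with Gln, 11.2, 12.0 and 12.0 at 12 h and 14.0, 13.4 and 13.5 at 24 h. The 3 groups did not overlap, and the difference from Gln added was 0.17 ± 0.05 (limma, adjusted p = 0.0101) at 12 h and 0.38 ± 0.05 (adjusted p = 3.34e-05) at 24 h. SRSF5, whose mRNA is known to respond to growth signals, was at 68.6, 65.8 and 64.8 FPKM with Gln, 73.5, 67.5 and 70.2 at 12 h and 84.5, 81.7 and 82.1 at 24 h. It overlapped at 12 h (0.08, limma adjusted p = 0.0913, called without 12 h replicate 2 at adjusted p = 0.0419) and rose at 24 h by 0.32 ± 0.04 (adjusted p = 4.02e-05).

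SRSF1, the founding SR protein and a known oncogene product, passed the test at 24 h and not at 12 h. It was at 89.9, 83.3 and 89.9 FPKM with Gln, at 86.7, 88.7 and 94.9 at 12 h and at 62.4, 70.5 and 71.8 at 24 h. Gln-added and 12 h libraries were mixed and the 24 h libraries were under all of them, with 0.04 ± 0.06 at 12 h (limma, adjusted p = 0.59) and -0.36 ± 0.06 at 24 h (adjusted p = 0.000266). GENCODE has another gene on the same strand over 32.7% of SRSF1 exonic bases. SRSF11 rose at 24 h by 0.32 ± 0.09 (limma, adjusted p = 0.00828), with 23.0, 20.3 and 21.4 FPKM with Gln and 23.4, 29.4 and 28.4 at 24 h. SRSF10, which represses splicing after heat shock, did not pass at either time (-0.18 and -0.15, adjusted p = 0.116 and 0.161) and was called at 12 h without 12 h replicate 3 or 24 h replicate 1 (limma, adjusted p = 0.0382 to 0.0408). It had the widest replicate spread of the members over 10 FPKM at 24 h, a CV of 12.1% beside a member median of 3.43%. SRSF12 had 2 to 7 fragments per library and was not tested.

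Rises and falls within the family changed the ratio between its members inside each library. The ratio of SRSF4 to SRSF2 FPKM was 0.386, 0.394 and 0.391 with Gln, 0.786, 0.829 and 0.804 at 12 h and 0.831, 0.879 and 0.831 at 24 h. SRSF5 to SRSF3 went from 0.793 ± 0.0323 (SD, n = 3) to 1.19 ± 0.0811 and 1.45 ± 0.139. These pairs were chosen after their values were seen and carry no test.

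**Figure D3:**
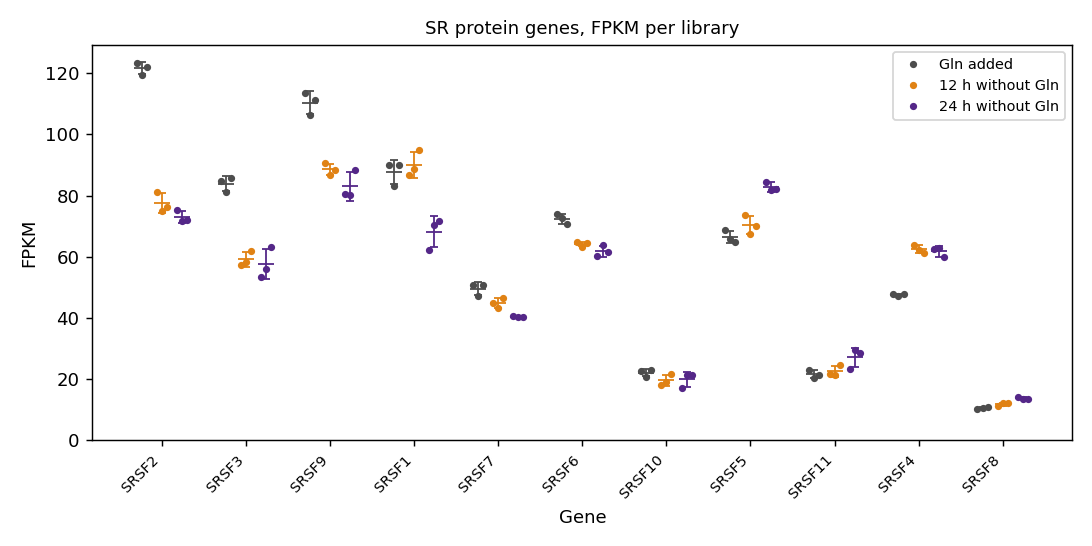
FPKM of the 11 tested SRSF genes in each library (points; gray, Gln added; orange, 12 h; purple, 24 h without Gln), with the group mean as a dash and the SD over 3 libraries as a bar, ordered by the log2 difference at 24 h. SRSF2, SRSF3 and SRSF9 lie lower at both times, SRSF1 only at 24 h, SRSF4 higher at both times, and SRSF5 higher at 24 h.

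Of the 7 hnRNP A and B genes, whose proteins are abundant nuclear RNA-binding proteins with 2 RNA recognition motifs, 3 fell and 3 rose at 12 h, and 4 fell and 1 rose at 24 h (85.7% and 71.4% called, beside 60.2% and 64.7% of all genes tested). HNRNPA3, which shares its RNA binding preference with hnRNP A2, was at 146, 135 and 147 FPKM with Gln, 108, 103 and 110 at 12 h and 103, 99.7 and 106 at 24 h. All deprived libraries were lower, at -0.41 ± 0.04 (limma, adjusted p = 1.52e-05) at 12 h and -0.47 ± 0.04 (adjusted p = 4.14e-06) at 24 h, and 53.6% of its exonic bases lie opposite another gene. HNRNPA2B1, the gene of an RNA trafficking and splicing protein, went from 253, 233 and 248 FPKM to 212, 206 and 217 at 12 h and 210, 204 and 207 at 24 h. Its groups did not overlap, with -0.21 ± 0.04 (limma, adjusted p = 0.000725) and -0.24 ± 0.04 (adjusted p = 0.000223). HNRNPA1, the most abundant member, did the opposite at 12 h.

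HNRNPA1 was at 317, 301 and 308 FPKM with Gln, 335, 332 and 338 at 12 h and 345, 310 and 326 at 24 h. The 12 h group lay above the Gln-added one by 0.12 ± 0.04 (limma, adjusted p = 0.0276), a call lost without any of 5 libraries (Gln-added replicate 2 or 3, or any 12 h replicate; adjusted p = 0.0523 to 0.0991), and at 24 h the groups overlapped (0.08, adjusted p = 0.0982, called without 24 h replicate 2 at 0.016). HNRNPA1L2 and HNRNPA1L3 are retrocopies of HNRNPA1 with 219 to 395 fragments per library, and reads of the 3 genes can be split between them, so their rises at 12 h (0.28 and 0.24) are uncertain. All exonic bases of HNRNPA1L2 (100%) also lie under another gene of the same strand, and its calls were lost without Gln-added replicate 1 or 12 h replicate 1 at 12 h (adjusted p up to 0.076) and without Gln-added replicate 1 or 2 or 24 h replicate 2 or 3 at 24 h (adjusted p up to 0.0915). The 12 h call of HNRNPA1L3 was lost without Gln-added replicate 2 or 12 h replicate 1 or 3 (adjusted p up to 0.102). HNRNPAB and HNRNPA0 fell at 24 h, at -0.35 ± 0.04 (limma, adjusted p = 2.32e-05) and -0.30 ± 0.04 (adjusted p = 0.000154). At 12 h HNRNPAB was at -0.10, a call lost in 7 of the 9 fits without 1 library (any Gln-added or 12 h replicate, or 24 h replicate 3; adjusted p up to 0.159).

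Genes of other hnRNP classes also fell at 24 h. HNRNPC, whose protein packs nascent transcripts and binds uridine tracts, was at 153, 156 and 163 FPKM with Gln, 145, 140 and 148 at 12 h and 120, 126 and 126 at 24 h. The 3 groups stood in separate ranges, at -0.13 ± 0.04 (limma, adjusted p = 0.0122; lost without Gln-added replicate 3 or 12 h replicate 2, adjusted p = 0.0521 and 0.0605) and -0.34 ± 0.04 (adjusted p = 1.62e-05). HNRNPM was at 105, 100 and 102 FPKM with Gln, 95.9, 98.1 and 102 at 12 h and 88.3, 80.5 and 85.0 at 24 h, overlapping at 12 h (-0.06, adjusted p = 0.263) and lower at 24 h, at -0.28 ± 0.04 (limma, adjusted p = 0.000154). HNRNPL, which binds CA repeats, showed -0.09 (adjusted p = 0.114) at 12 h and -0.30 ± 0.04 (limma, adjusted p = 0.000171) at 24 h.

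HNRNPD, also known as AUF1 and a factor of AU-rich mRNA decay, fell only at 24 h (-0.23 ± 0.04, limma, adjusted p = 0.000426), while its relative HNRNPDL was at -0.11 at 12 h (adjusted p = 0.0344; lost without Gln-added replicate 1 or 3 or 12 h replicate 1 or 2, adjusted p = 0.0567 to 0.128) and -0.04 at 24 h (adjusted p = 0.408). HNRNPUL2, a relative of HNRNPU, was listed at 7.55, 7.24 and 7.34 FPKM with Gln, 6.79, 6.15 and 6.39 at 12 h and 5.60, 4.54 and 5.30 at 24 h. Its groups did not overlap, and the 24 h difference was -0.52 ± 0.07 (limma, adjusted p = 0.000117), while the 12 h call (-0.19, adjusted p = 0.0426) was lost in 6 such fits (without any Gln-added replicate, 12 h replicate 2 or 3 or 24 h replicate 3; adjusted p up to 0.132). RefSeq places 99.5% of the HNRNPUL2 span inside a readthrough gene with BSCL2 that is not a row of the table. BSCL2 had only 6 to 25 fragments per library. The listed HNRNPUL2 values may therefore miss part of its mRNA, which was not tested. HNRNPU itself, the nuclear scaffold protein, stayed between 108.6 and 116.5 FPKM in all 9 libraries and was not called (-0.03 and -0.05).

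HNRNPK, a poly(C) binding protein, fell, at -0.13 ± 0.03 (limma, adjusted p = 0.00492) at 12 h and -0.19 ± 0.03 (adjusted p = 0.000467) at 24 h. The 3 other hnRNP genes outside the A and F/H classes differed from one another: HNRNPLL, a paralog of HNRNPL known from T cells, rose at both times (0.18 and 0.21, limma adjusted p = 0.00925 and 0.00379), HNRNPR rose at 12 h (0.20, adjusted p = 0.0112) and was at 0.10 at 24 h (adjusted p = 0.13, called without 24 h replicate 1 at 0.0121), and HNRNPUL1 was at -0.07 (adjusted p = 0.23) and fell at 24 h (-0.22, adjusted p = 0.00248).

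The F and H class binds G tracts in RNA, and its members diverged. HNRNPF was at 136, 135 and 132 FPKM with Gln, 168, 170 and 179 at 12 h and 177, 165 and 174 at 24 h. All deprived libraries were higher, by 0.36 ± 0.04 (limma, adjusted p = 1.43e-05) and 0.35 ± 0.04 (adjusted p = 1.14e-05), which made it the hnRNP gene with the largest rise. HNRNPH1 was at 120, 110 and 113 FPKM with Gln, 101, 106 and 115 at 12 h and 91.3, 98.8 and 101 at 24 h, overlapping at 12 h (-0.09, adjusted p = 0.165; called without 12 h replicate 3, -0.15, adjusted p = 0.0381) and lower at 24 h, at -0.24 ± 0.06 (limma, adjusted p = 0.00303). The ratio of HNRNPF to HNRNPH1 within a library went from 1.17 ± 0.0482 (SD, n = 3) to 1.61 ± 0.0558 and 1.78 ± 0.142, a pair chosen after its values were seen.

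HNRNPH3 rose at 12 h and was back at 24 h, with 55.3, 53.7 and 57.9 FPKM, then 64.5, 65.2 and 66.6, then 56.5, 55.6 and 57.7. Only the 12 h libraries stood apart, at 0.23 ± 0.04 (limma, adjusted p = 0.000264), beside 0.02 (adjusted p = 0.574) at 24 h. HNRNPH2, the class member whose protein the study examined, was listed at 0 in 7 of the 9 libraries and held 1 fragment in each of the other 2, so it could not be tested. RefSeq places its whole span (100% of chrX:101408222-101414133) inside the readthrough gene RPL36A-HNRNPH2, which is not a row of the table, and RPL36A, a ribosomal protein gene that every cell uses, had only 2 to 8 fragments per library. The table therefore gives no level for HNRNPH2 that can be read as its mRNA. HNRNPCL1 and HNRNPCL3, HNRNPC copies, held at most 1 and 2 fragments in any library.

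**Figure D4:**
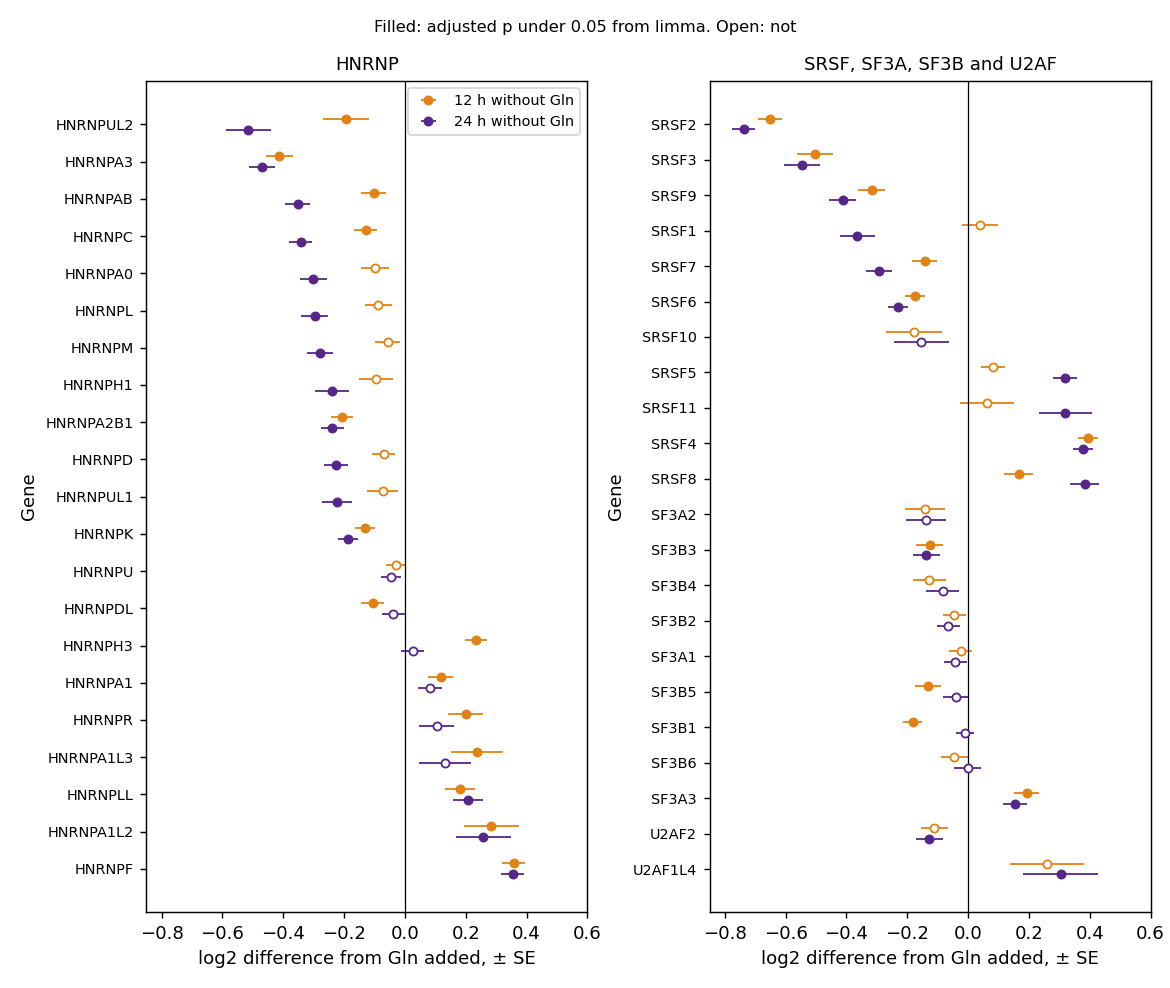
Log2 difference from Gln added, with its SE, at 12 h (orange) and 24 h (purple) for the tested HNRNP genes (left) and SRSF, SF3A, SF3B and U2AF genes (right), with filled points for adjusted p under 0.05 in limma. U2AF1, with an SE of 0.59, is left out of the plot, and the purple points of HNRNPC, HNRNPM, HNRNPL and SRSF1 lie well to the left of their orange points.

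Of the 9 SF3A and SF3B genes, 1 rose and 3 fell at 12 h and 1 rose and 1 fell at 24 h. This is 44.4% and 22.2% called, beside 60.2% and 64.7% of all genes tested, and the differences of both times lay between -0.18 and 0.19. SF3A3, a zinc finger subunit of SF3a, was at 60.4, 60.2 and 66.1 FPKM with Gln, 70.6, 71.9 and 70.8 at 12 h and 70.9, 68.2 and 68.6 at 24 h, above Gln added in all deprived libraries (0.19 and 0.15, limma adjusted p = 0.0019 and 0.00643). SF3B1, the branch point subunit and the target of splicing inhibitors such as pladienolide B, was at 59.5, 58.4 and 60.5 FPKM with Gln, 52.1, 52.0 and 53.1 at 12 h and 58.5, 58.7 and 60.0 at 24 h. Only its 12 h libraries were low, at -0.18 ± 0.03 (limma, adjusted p = 0.000486), beside -0.01 (adjusted p = 0.797) at 24 h.

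SF3B3 was at -0.13 and -0.14 (limma, adjusted p = 0.0308 and 0.0189), and both calls were lost without Gln-added replicate 2 (and, by time, without 12 h replicate 3 or 24 h replicate 2 or 3), with adjusted p of 0.0541 to 0.116. SF3B5, the smallest subunit here and the most abundant by FPKM, was at -0.13 at 12 h (adjusted p = 0.0195) with overlapping groups, a call lost without Gln-added replicate 1 or 3 or 12 h replicate 1 or 3 (adjusted p = 0.0643 to 0.0779). U2AF2, which binds the polypyrimidine tract, was at 61.3, 60.6 and 62.0 FPKM with Gln and at 54.0 to 59.8 in the deprived libraries, at -0.11 (limma, adjusted p = 0.0558; called without 12 h replicate 2 or 24 h replicate 1) and -0.13 (adjusted p = 0.0296; lost without any Gln-added replicate or 24 h replicate 2 or 3, adjusted p up to 0.111). U2AF1L4 passed at 24 h (0.30, limma adjusted p = 0.0488), lost without Gln-added replicate 1 or 3, 12 h replicate 2 or any 24 h replicate (adjusted p up to 0.157), on 91 to 130 fragments per library. That call was also lost with an added constant of 1, without a filter, with median-ratio scaling, with a replicate block, without the trend and with voom. GENCODE has another gene on the same strand over 24.8% of U2AF1L4 exonic bases. U2AF1, which reads the AG at the end of the intron, has a near-identical copy on the same chromosome of the GRCh38 reference (LOC102724594). Whether the copy is a separate gene was not tested. The 0.53 to 3.67 FPKM of U2AF1, beside 1.26 to 17.2 FPKM for the copy, is uncertain, and the sign of its differences turned with single libraries.

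Whether the 2 times differed was tested directly, 24 h against 12 h. Of the 44 members, 3 were higher and 10 lower at 24 h and 31 did not pass, so that 29.5% were called beside 20.1% of all genes tested (lower, 22.7% beside 10.5%; higher, 6.82% beside 9.57%). Of the 10 lower members, 8 were HNRNP genes and 2 SRSF genes. SRSF1 had the largest step, -0.40 ± 0.06 (limma, adjusted p = 0.000963). HNRNPUL2 followed at -0.32 ± 0.07 (adjusted p = 0.0123; -0.28 and adjusted p = 0.0503 without 12 h replicate 1), then HNRNPAB at -0.25 ± 0.04 (adjusted p = 0.00202), HNRNPM at -0.22 ± 0.04 (adjusted p = 0.00421) and HNRNPC at -0.21 ± 0.04 (adjusted p = 0.00316). HNRNPH3, HNRNPL, HNRNPA0, HNRNPD and SRSF7 made up the rest, between -0.21 and -0.15. The calls of HNRNPD and SRSF7 were lost without single libraries (HNRNPD without 12 h replicate 1 or 24 h replicate 2, adjusted p = 0.0529 and 0.0575; SRSF7 without 12 h replicate 1 or 3 or 24 h replicate 2 or 3, up to 0.077).

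The 3 members higher at 24 h than at 12 h were SRSF5 (0.23 ± 0.04, limma, adjusted p = 0.00238), SRSF8 (0.22 ± 0.05, adjusted p = 0.00868) and SF3B1 (0.17 ± 0.03, adjusted p = 0.00343). SRSF11 was at 0.26 ± 0.09 (adjusted p = 0.0648) and passed without 12 h replicate 3 or 24 h replicate 1 (adjusted p as low as 0.00667). Groups did not overlap for 15 of the 44 members, beside 34.4% of all genes tested. For some of the genes that had moved most by 12 h, the intervals of the later step (2 SE to each side) were -0.16 to -0.01 for SRSF2, -0.16 to 0.07 for SRSF3, -0.14 to 0.03 for HNRNPA3 and -0.08 to 0.07 for HNRNPF. SRSF9 had -0.18 to -0.01. The intervals of SRSF2 and SRSF9 lay under 0, though neither step passed the test (limma, adjusted p = 0.143 and 0.162).

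Lists of other splicing genes, 5 in number, were read beside the families. Most of the Sm and LSM proteins form the rings around the spliceosomal RNAs. Of the 15 tested, 11 fell at 12 h and 1 rose, which was LSM1 (0.15, limma adjusted p = 0.0321). At 24 h, 13 fell and none rose. The median was -0.32 and -0.33 (80.0% and 86.7% called, beside 60.2% and 64.7% of all genes tested). LSM3 went from 15.6 to 16.9 FPKM with Gln to 6.60 to 7.17 at 12 h and 5.74 to 6.13 at 24 h (-1.22 ± 0.05 and -1.43 ± 0.05, limma adjusted p = 1.71e-08 and 3.22e-09). SNRPD2 was at -0.60 and -0.73, LSM5 at -0.64 and -0.71 and SNRPF at -0.35 and -0.64. Of 26 proteins of the U1, U2 and tri-snRNP particles and the Prp19 complex, 6 rose and 9 fell at 12 h and 3 rose and 13 fell at 24 h, and the shares called, 57.7% and 61.5%, were near those of all genes. SNRPA, the U1 A protein, fell, at -0.34 and -0.66, as did SNRPC (-0.22 and -0.46) and TXNL4A (-0.35 and -0.46), whereas PLRG1 of the Prp19 complex rose by 0.46 and 0.48.

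The kinases that phosphorylate SR proteins and so set their place and activity had 2 higher and 1 lower of 8 at 12 h and 4 higher and 1 lower at 24 h (37.5% and 62.5% called, beside 60.2% and 64.7% of all genes tested). CLK1 was at 15.3 to 16.5 FPKM with Gln, 22.2 to 24.6 at 12 h and 25.8 to 28.0 at 24 h (0.56 ± 0.05 and 0.74 ± 0.05, limma adjusted p = 5.92e-06 and 4.85e-07). CLK3 rose by 0.40 and 0.43, CLK4 was at 0.04 (adjusted p = 0.738) and 0.25 (adjusted p = 0.0248; lost without Gln-added replicate 1 or 2 or 24 h replicate 2 or 3, adjusted p up to 0.0806), and SRPK1 fell, at -0.21 and -0.24. Of 33 other RNA-binding splicing regulators, 16 rose and 7 fell at 12 h and 14 rose and 10 fell at 24 h (69.7% and 72.7% called), among them MBNL2 (0.72 and 0.86) and RBM5 (0.40 and 0.50) upward and TAF15 (-0.44 and -0.43) and SRRM1 (-0.42 and -0.47) downward. Of 10 factors of nonsense-mediated decay, the pathway that degrades poison exon transcripts, 7 rose at 12 h and 6 at 24 h and none fell (70.0% and 60.0% higher, beside 29.1% and 33.0% of all genes tested, of which 31.0% and 31.7% were lower). UPF3B was at 3.64 to 3.80 FPKM with Gln, 5.43 to 6.26 at 12 h and 5.05 to 6.14 at 24 h (0.63 ± 0.08 and 0.55 ± 0.08, limma adjusted p = 4.88e-05 and 0.000104), SMG1 rose by 0.42 and 0.38 and UPF3A by 0.39 and 0.33. SMG9 was at 0.30 and 0.16, the latter lost without any Gln-added replicate, 12 h replicate 2 or 24 h replicate 1 or 2 (adjusted p up to 0.16).

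**Figure D5:**
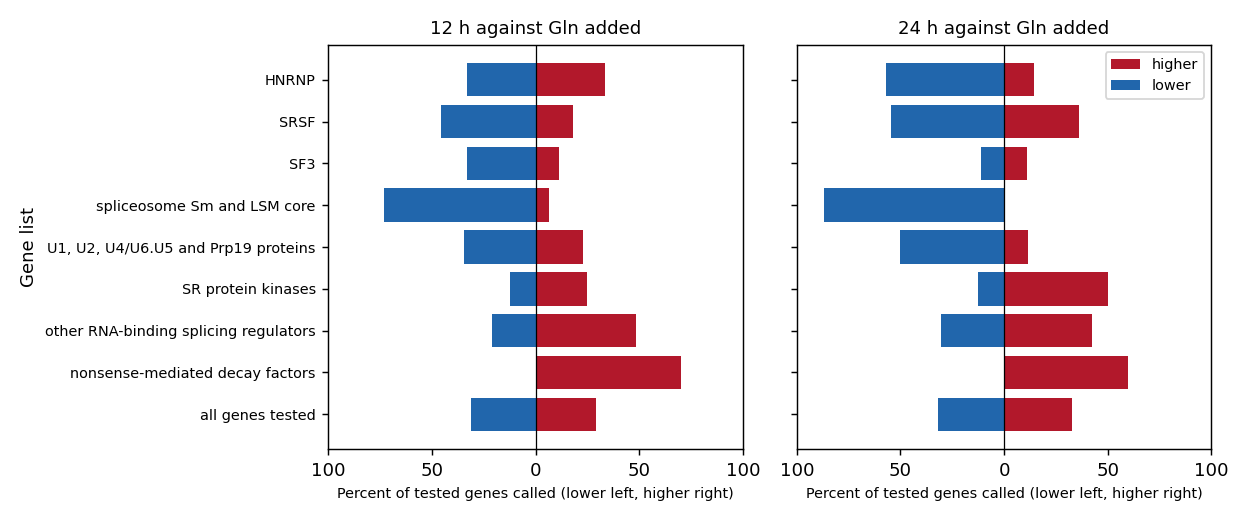
Percent of tested genes called higher (red, right) or lower (blue, left) than with Gln added (limma, adjusted p under 0.05) at 12 h and at 24 h, for 3 of the 4 families, the 5 other lists and all genes tested. Lower calls take 73.3% and 86.7% of the Sm and LSM genes beside 31.0% and 31.7% of all genes, and decay factors have higher calls only.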

How the data were processed

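RNA-seq was made from 9 Hep G2 libraries in 3 groups of 3, set by the sample labels. The authors deposited FPKM per gene, without counts. Per the study's methods, STAR placed the reads on GRCh38, and the submitters' processing notes also name HTSeq and R 3.2.0, without saying what each did. The methods describe strand-specific libraries from a NEBNext kit, whereas the labels name a VAHTS kit, and the annotation and the strand setting of the counting are not given in the sources used here. The authors used DESeq2, per the study's methods, which was not run here. Since FPKM are the deposited unit, the main test was limma 3.58.1 (R 4.3.3) on log2(FPKM + 0.1), with 1 fit over the 3 groups, a trend in the prior variance, no other covariate and Benjamini-Hochberg adjustment over the 11880 genes that averaged 0.5 FPKM or more. The added constant understates changes of low genes.

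All FPKM values above 0 (100%) worked back to whole fragments within 0.1 fragments, which gave depth, and the fragments went to a voom alternative. Recovery was tested on simulated data (9 library totals and 99.67% of 11546 genes), as was limma at 12 h against Gln added: of 11884 genes, 69 of 100 changed by 0.3 and 100 of 100 changed by 1 on the log2 scale were called, with 8 false calls among 177. That simulation gave all genes and groups the same dispersion and changed no other genes. In the data 60.2% of genes tested were called at 12 h and replicate spread was unequal, so these rates do not carry over to the calls above. Single sums were compared with two-sided exact permutation tests. No column of the table was left unused. Same-numbered deviations from the group mean correlated at -0.136 to 0.283, with 2 of 9 over 0.1, and differently numbered ones at -0.467 to 0.296. Deviations within a group are tied to one another, so these values cannot show whether replicate numbers pair the groups.

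Members and lists were chosen with earlier results of these data known. Named were the most abundant and the largest called gene of each class, the 5 largest rises and falls of each comparison, HNRNPH2, and up to 4 genes of each other list. The other members and the ratios were named after their values were seen. Overlaps are from GENCODE v44 and RefSeq (GRCh38.p14) and promoters from RefSeq. Overlap shares are over all GENCODE exonic bases of a gene, which can differ from the length behind its FPKM (HNRNPA1L2, 1343 and 2299 bases). Alternatives were other constants, filters, scalings, fits and each library left out. Plots used matplotlib 3.10.9 in Python 3.11.15.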

Additional observations from a re-analysis of the deposited data

Results flagged for a closer look

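For 13 members, the difference from Gln added was not the same at 12 h and at 24 h, by the test of 24 h against 12 h in the same limma fit (adjusted p under 0.05, beside 20.1% of all genes tested). As the difference at 24 h minus that at 12 h on the log2 scale, SRSF1 had -0.40, HNRNPUL2 -0.32, HNRNPAB -0.25, HNRNPM -0.22, HNRNPC -0.21, HNRNPH3 -0.21, HNRNPL -0.21, HNRNPA0 -0.20, HNRNPD -0.16 and SRSF7 -0.15. SF3B1 had 0.17, SRSF8 0.22 and SRSF5 0.23. HNRNPH3 and SF3B1 did not overlap the Gln-added libraries at 12 h, in opposite directions, and overlapped them at 24 h, while SRSF1 and HNRNPM overlapped them at 12 h and not at 24 h. With 3 libraries a group, single libraries were not tested for standing apart. In the 24 h group, replicate 1 was the lowest of 3 for 13 of the 44 tested members, SRSF1 among them, and the highest for 19. Its counts differed from those of replicates 2 and 3 by a chi-square of 14.4 and 9.62 per degree of freedom, beside 5.18 between those 2 and 2.88 to 8.34 within the other groups.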

How the results depend on the processing

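Over 19 alternatives, 214 results gave 4066 values. Of the members called in the main fit, 15 of 25 at 12 h, 25 of 29 at 24 h and 10 of 13 for 24 h against 12 h were called under every alternative, and none of them changed sign. With FPKM rescaled to the same total, the count of lower members at 12 h was 9, and the median difference was -0.047 at 12 h and -0.058 at 24 h. The median at 24 h was -0.055 without a filter, and that of 24 h against 12 h was -0.054 under median-ratio scaling. Without single libraries, lower members at 12 h ranged from 9 to 17 and the 24 h median from -0.118 to -0.082. The cause of these shifts was not tested. Voom on the fragments called 9 higher and 16 lower at 12 h and 7 and 20 at 24 h.

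Whether the replicate numbers pair the samples could not be told. With the replicate number as a block the counts were 11 higher and 16 lower at 12 h, 8 and 21 at 24 h and 3 and 11 for 24 h against 12 h.

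The sign turned only for differences that had not passed the test. With the same total these were, against Gln added, HNRNPU (0.005) and SF3A1 (0.009) at 12 h, HNRNPDL (0.009), HNRNPU (0.002), SF3A1 (0.005), SF3B1 (0.037), SF3B5 (0.008) and SF3B6 (0.046) at 24 h, and HNRNPF (0.011) for 24 h against 12 h. Without single libraries the lowest and highest values of such differences were, against Gln added, -0.003 and 0.112 for SRSF11 and -0.451 and 0.84 for U2AF1 at 12 h, and 0.0 and 0.054 for HNRNPH3, -0.023 and 0.003 for SF3B1, -0.029 and 0.029 for SF3B6 and -0.308 and 0.582 for U2AF1 at 24 h. For 24 h against 12 h they were -0.101 and 0.06 for HNRNPA1L2, -0.024 and 0.025 for HNRNPF, -0.11 and 0.008 for SRSF3, -0.031 and 0.007 for SRSF4, -0.606 and 0.685 for U2AF1 and -0.084 and 0.193 for U2AF1L4.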
